A study of Mus musculus with 24 samples.

Results

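Livers of mice with acute pancreatitis stand between those of healthy controls and those of mice with severe acute pancreatitis on a scale of disease severity. For the genes described here, the level in acute pancreatitis lies above, or below, both ends of the scale. The liver RNA libraries number 24, all of Balb/c wild-type mice at 6 weeks of age, with 8 healthy controls (Con), 8 mice with acute pancreatitis (AP) and 8 with severe acute pancreatitis (SAP). How pancreatitis was induced and when livers were sampled is not given in the sources used here. Whether every library is its own mouse is not stated in the labels, and p-values therefore measure the spread between libraries. All 24 libraries entered the comparison of the AP mean with the average of the Con and SAP means. A library is called a liver below.

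Levels are in TPM, which states transcripts relative to a fixed total per library, and every difference is on the log2(TPM + 1) scale, which understates changes of genes at low levels. Of 55536 genes in the table, the 10555 that averaged at least 1 TPM across livers were tested, and a gene passed at an adjusted p under 0.05. The contrast called 2439 genes higher in AP than the average of both ends (23.1% of genes tested) and 2799 genes lower (26.5%). Such a call alone does not place AP outside the other groups: of the genes called higher, 2170 did not pass between AP and Con and fell in SAP, and of those called lower, 2726 did not pass between AP and Con and rose in SAP. A gene was therefore counted as a peak only where AP also passed as higher than Con and as higher than SAP, and as a dip where it passed as lower than both. From AP to SAP, 41% of genes tested rose and 31% fell. The AP to Con and AP to SAP comparisons share the AP livers, so their errors are not independent. This left 151 peaks (1.43% of genes tested) and 14 dips (0.133%), beside 180 graded rises (1.71%), in which both steps passed upward, and 79 graded falls (0.748%). Most genes that changed did so only in SAP: 4138 (39.2%) passed upward and 3045 (28.85%) downward between AP and SAP alone, which is called rising or falling at SAP only below, and 128 (1.21%) rose at AP only.

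**Figure D1:**
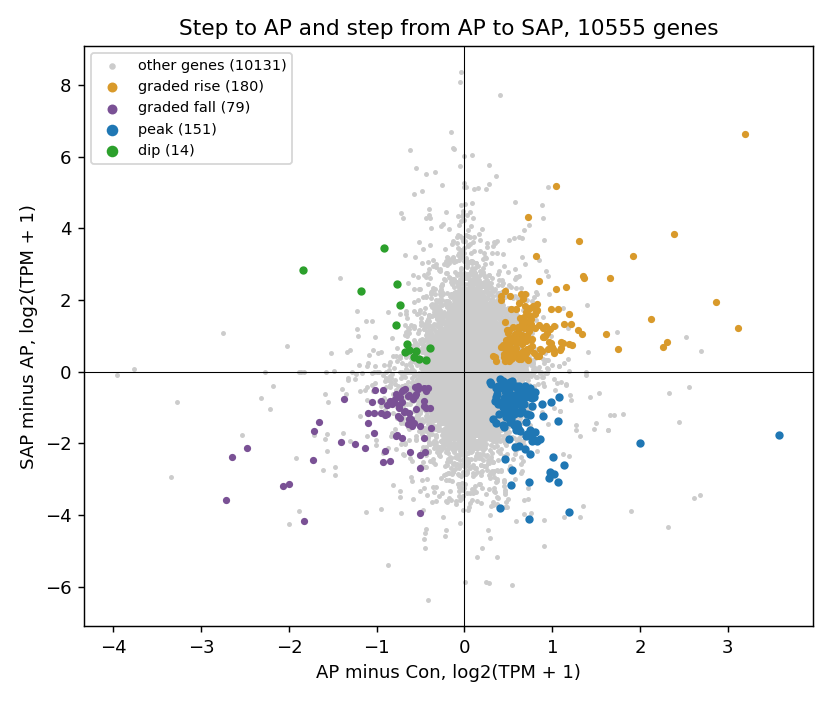
Each point is a gene, with the AP minus Con difference on the horizontal axis and the SAP minus AP difference on the vertical axis, both in log2(TPM + 1). The 151 peaks lie at the lower right and the 14 dips at the upper left, and the 180 graded rises and 79 graded falls lie in the other 2 quadrants.

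As background, an inflamed pancreas releases enzymes and cytokines into blood that drains to the liver. Hepatocytes answer with acute-phase proteins, and inflammation or reduced feeding also shifts them between making and burning fat. Fat is burned by beta-oxidation in mitochondria and peroxisomes, with ketone bodies as an export product, and the nuclear receptor PPAR-alpha turns on many of the enzymes. Heat-shock proteins fold or rescue proteins in the cytosol and in mitochondria under control of the factor HSF1, and the transcription factors ATF4 and ATF5 are induced when protein synthesis or the mitochondria are under stress.

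The peaks were mostly small steps on abundant transcripts. The distance from the AP mean to the nearer of the other group means had a median of 0.52 (range 0.20 to 2.003) over the 151 peaks, and 8 of them reached 1. Between SAP and Con, 82 peaks passed as lower in SAP (29.8% of all genes tested did), 3 passed as higher (44.2%) and 66 did not pass; for 57 peaks the 95% confidence interval of the SAP minus Con difference lay within 1.5-fold in either direction. In 22 peaks all 8 AP livers lay above all 16 other livers, against 26 of all genes tested (0.246%). The other 4 genes of that kind, G0s2, Rps26, Mrps14 and Gm10260, did not pass between AP and Con. Peaks were chosen for an AP level above both other groups, so the shares over all genes are not an expectation for these counts. The median of the mean level was 52.05 TPM for peaks against 5.848 TPM for all genes tested, and the median transcript length was 1749 bases against 2914 bases. In bulk tissue, fewer cells of a type and less RNA per cell cannot be told apart.

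Livers did not contribute alike to these counts, and the 2 sets of AP livers named here were seen in the values, since the labels name nothing that separates them. AP 15, 17, 18 and 19 lay above all 16 other livers at 138, 135, 118 and 127 of the 151 peaks, and AP 11, 12, 13 and 16 at 82, 70, 51 and 78. Averaged over the peaks, each centred on its mean over 24 livers, the former set lay at 0.68 to 0.79 and the latter at 0.37 to 0.49. Con 1, 7 and 10 lay at -0.31 to -0.23 and the other controls at 0.03 to 0.17. Transcripts of the mitochondrial genome took 7.81 to 10.28% of TPM in the former AP set, 11.46 to 13.71% in the latter, 19.84 to 22.19% in Con 1, 7 and 10, 12.51 to 16.03% in the other controls and 2.80 to 6.26% in SAP. With TPM rescaled without those transcripts, an alternative chosen after seeing the data, 78 peaks were called among 10834 genes tested, 65 of them among the 151. Rescaling changes only the total and the genes tested, and the part of this share in the peaks was not tested. Leaving out 1 liver gave between 51 peaks (without AP 15) and 223 (without Con 3). The count fell to 58, 52, 58, 51, 54, 87 and 70 when leaving out Con 1, 7 or 10, or AP 15, 17, 18 or 19, in this order. Without AP 15, 17, 18 and 19 together only 3 peaks and 0 dips were left, in a fit that called 9 genes higher and 2 lower in AP than in Con, against 459 (4.35% of genes tested) and 119 (1.13%) with all livers. The median AP minus Con difference of the 151 peaks was 0.40 without these 4 livers, 0.73 without the other 4 AP livers and 0.56 with all.

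**Figure D2:**
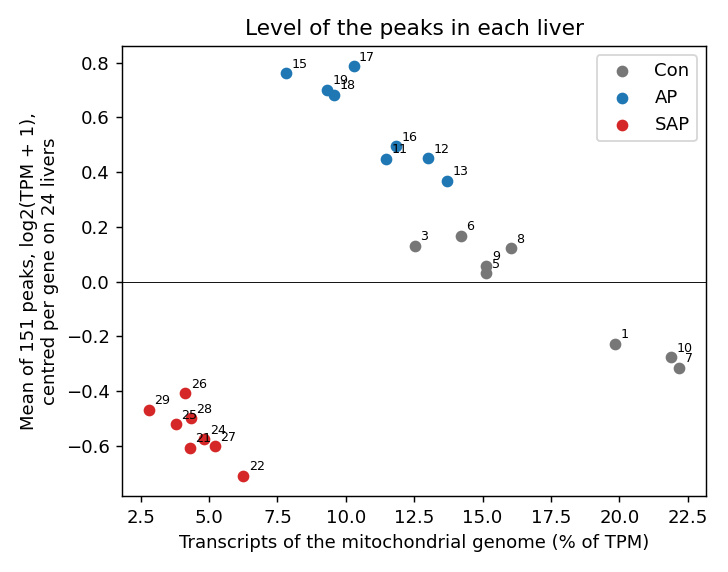
Each point is 1 liver, with the share of TPM from transcripts of the mitochondrial genome on the horizontal axis (percent) and the mean of the 151 peaks on the vertical axis, in log2(TPM + 1) centred per gene on the 24 livers. The peaks were chosen for being high in AP, so the height of the AP group is fixed by that choice; the 4 AP livers with shares up to 10.28% lie above the other 4, Con 1, 7 and 10 with shares from 19.84% lie below the other controls, and the SAP livers lie below 0 with shares under 6.26%.

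Given this dependence, the genes described in most depth below are peaks that kept their call in each of the 24 fits without 1 liver and under 4 other scalings (quantile normalization, centring on the median, rescaling without the 50 most abundant genes and rescaling without mitochondrial transcripts). There are 36 such peaks of 151 and 3 such dips of 14. They are called steady here with respect to these fits only, and the set was chosen after the values were seen.

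Atf5, a basic leucine zipper transcription factor induced under amino acid and mitochondrial stress, had its highest levels in AP. It was at 102 to 226 TPM in Con (median 172), 257 to 380.5 TPM in AP (median 284) and 51.3 to 108 TPM in SAP (median 76.9). No AP liver overlapped either group. AP was 1.82-fold above Con (log2 difference 0.87 ± 0.16 SE, adjusted p = 0.00378) and 3.67-fold above SAP (adjusted p = 1.14e-10), and SAP was below Con (difference -1.01, 95% interval -1.33 to -0.68, adjusted p = 3.04e-06). Atf5 is steady; over the fits without 1 liver the AP minus Con difference ran from 0.77 to 0.94. Without AP 15, 17, 18 and 19 it was 0.91, with an adjusted p of 0.111.

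Most other genes of the same stress response rose at SAP only. Among 32 measured unfolded protein response factors and ATF4 targets, Atf5 was the only peak (1.43% of all genes tested are peaks), 4 genes were called higher by the contrast (23.1% of all), 21 were called lower (26.5%) and 25 rose at SAP only (39.2%). Atf4 itself was at 44.4 ± 9.61 TPM in Con, 47.6 ± 9.60 in AP and 205 ± 41.6 in SAP (mean ± SD, n = 8 in each group here and below). Chac1, which breaks down glutathione, was at 0.679 ± 0.306, 0.769 ± 0.521 and 27.6 ± 11.8 TPM. Of 26 chaperones and folding enzymes of the endoplasmic reticulum none was a peak. There, 1 (Dnajc3) was a graded rise (1.71% of all genes tested) and 17 rose at SAP only (39.2%). With 1.43% of all genes tested being peaks, a count of 0 in a list of this size is near the background. The chaperone Hspa5 was at 55.1 ± 19.0, 94.9 ± 42.8 and 1595 ± 590.0 TPM. Degradation genes of that compartment held 0 peaks and 3 graded rises among 20 (Ufd1, Vcp and Selenos), where all genes give 1.43% and 1.71%. Of these 20, 9 rose at SAP only (39.2% of all genes) and 3 rose at AP only (1.21%).

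Heat-shock proteins held 4 peaks among 22 measured genes, and 13 of the 22 were called higher by the contrast (over all genes, 1.43% and 23.1%), with a median contrast of 0.58 against -0.04 over all genes tested. Of the 22, 11 fell at SAP only (28.85% of all genes), without a call between AP and Con. Without 1 liver the peaks ran from 2 (without Con 1, 5, 7 or 10 or AP 15, 17 or 19) to 6 (without AP 13). Hspa1b, the inducible cytosolic HSP70, was at 3.35 to 15.2 TPM in Con (median 5.6), 6.14 to 19.3 TPM in AP (median 14.4) and 0.22 to 1.5 TPM in SAP (median 0.545). Every AP liver lay above every SAP liver, but only 3 lay above all controls, among which Con 6 was the highest. AP was 2.09-fold above Con (difference 1.07 ± 0.23 SE, adjusted p = 0.0119) and 8.40-fold above SAP (adjusted p = 1.84e-11), and SAP was below Con (adjusted p = 3.03e-08). Its level is uncertain, since 62.3% of the 50-base windows of its transcripts also occur in other genes, chiefly Hspa1a, which was not among the genes tested.

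Hspa8, the constitutive HSP70, peaked without a call between SAP and Con. It was at 204 to 481 TPM in Con, 399.9 to 672 TPM in AP and 325 to 463 TPM in SAP, and 6 of 8 AP livers lay above all others. Its AP minus Con difference was 0.70 ± 0.15 SE (adjusted p = 0.0119) and its SAP minus AP difference -0.56 ± 0.15 SE (adjusted p = 0.00191), while SAP minus Con was 0.14 (95% interval -0.18 to 0.45). Both HSP70 genes are steady, although 52.7% of the windows of Hspa8 occur elsewhere. The other 2 peaks were not steady. Hspe1, the mitochondrial co-chaperonin HSP10, was at 110.1 ± 27.0, 152 ± 28.2 and 80.6 ± 6.68 TPM, and lost its call without any 1 of Con 1, 5, 7 and 10 and AP 15, 17, 18 and 19 (highest adjusted p against Con 0.0998, without Con 7). Ahsa1, an activator of HSP90, was at 41.1 ± 12.5, 66.8 ± 17.3 and 40.6 ± 11.5 TPM, and lost it without any 1 of the same livers other than AP 18 (highest adjusted p 0.0858, without AP 19).

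Partners of these chaperones showed other shapes. Hspd1, the HSP60 that works with Hspe1, rose at SAP only and was at 36.9 ± 7.45, 51.7 ± 9.35 and 88.8 ± 31.4 TPM. Hspa9, the mitochondrial HSP70, was a graded rise at 18.8 ± 4.62, 32.5 ± 9.71 and 116 ± 39.5 TPM. Hsph1, a nucleotide exchange factor for HSP70, did not pass between AP and Con (adjusted p = 0.0785) and fell in SAP. The factor HSF1 binds repeats of GAA and TTC in alternating orientation. The letters GAA, TTC and GAA, each 2 bases apart, searched on both strands from 250 bases before to 50 bases after each start, were found for 1 of the 110 peaks with a promoter in RefSeq (GRCm38.p6), and for 0.613% of the 7825 tested genes with one. That peak is Hspe1, where 2 matches on opposite strands overlap, in capitals here, the first letter 89 bases before the start:
Hspe1, chr1:55088053-55088082, plus strand: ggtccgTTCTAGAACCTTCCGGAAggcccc
The promoters of Hspa1b and Ahsa1 held no such match, which says only that these letters are not in this window, and Hspa8 had no entry.

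Genes of fat burning took several shapes, peaks and graded rises among them. In the list of fatty acid oxidation genes and PPAR-alpha targets, with 40 measured, 6 were peaks (among them Acot4, Acaa2, Bdh1, Ech1 and Aldh3a2), 12 were graded rises, 3 rose at AP only and 12 rose at SAP only. Over all genes tested, 1.43% were peaks, 1.71% graded rises, 1.21% rises at AP only and 39.2% rises at SAP only. Of the 40, 5 fell at SAP only (28.85% of all genes) and 2 passed neither step (26.47%). The contrast called 17 of the 40 higher (23.1% of all genes) and 8 lower (26.5%), and without 1 liver the peaks ran from 3 (without AP 15 or 17) to 6. The list was chosen with earlier results of these data known, so its count is a description.

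Bdh1, which reduces acetoacetate to beta-hydroxybutyrate, was at 73.4 to 108 TPM in Con, 117 to 161 TPM in AP and 18.4 to 59.7 TPM in SAP. Its groups did not overlap, with AP 1.63-fold above Con (adjusted p = 0.0252) and 3.51-fold above SAP (adjusted p = 2.26e-09). It lost its call without Con 1, 7 or 10 or AP 15, 17 or 19 (highest adjusted p 0.0614, without AP 15).

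Peroxisomal and mitochondrial enzymes of unsaturated and dicarboxylic acids were also among the peaks. Acot4, a peroxisomal thioesterase of dicarboxylic acyl-CoA, was at 2.36 to 6.39 TPM in Con, 6.79 to 11.3 TPM in AP and 1.77 to 7.93 TPM in SAP. All AP livers lay above all controls and 5 above every other liver; AP was 1.98-fold above Con (adjusted p = 0.00965) and 1.80-fold above SAP (adjusted p = 0.000768). Decr2, the peroxisomal 2,4-dienoyl-CoA reductase, was at 11.3 to 20.3 TPM in Con, 21.1 to 37.2 TPM in AP and 6.20 to 16.3 TPM in SAP, with no overlap of AP with either group. It was 1.85-fold above Con (adjusted p = 0.00623) and 2.38-fold above SAP (adjusted p = 6.16e-07). Both are steady, and Acot4 overlaps the predicted gene Gm49366 on its own strand.

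Ech1, a dienoyl-CoA isomerase of both organelles, was at 451 ± 78.4, 608 ± 57.2 and 306 ± 26.4 TPM and kept its call in all 24 fits without 1 liver, but not after quantile normalization or either rescaling. Aldh3a2, the fatty aldehyde dehydrogenase, was at 44.5 ± 6.29, 76.6 ± 21.3 and 15.5 ± 7.49 TPM with no overlap between AP and the rest. Its call was lost without Con 1, 7, 9 or 10 or AP 15, 17, 18 or 19 (highest adjusted p 0.0764, without AP 17). Acaa2, the last thiolase of mitochondrial beta-oxidation, was at 296 ± 53.6, 429 ± 53.3 and 357 ± 42.2 TPM. It was 1 of the 3 peaks in which SAP passed as higher than Con, and the AP to SAP step was lost without AP 15, 17 or 18 or SAP 27, 28 or 29 (highest adjusted p 0.0780).

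Further fat-related genes outside that list were chosen after their values were seen, because they are steady. Etfb, a subunit of the electron transfer flavoprotein that accepts electrons from beta-oxidation, was at 641 ± 50.2, 892 ± 125 and 488 ± 40.6 TPM, but 67.3% of its windows occur elsewhere. Bbox1, which makes carnitine, was at 8.95 ± 1.70, 14.04 ± 2.42 and 4.45 ± 0.940 TPM. Glyat, which conjugates acyl-CoA with glycine, was at 39.9 ± 4.34, 68.1 ± 10.4 and 29.97 ± 9.52 TPM. In Etfb and Glyat all 8 AP livers lay above all others, and in Bbox1 it was 7 of 8.

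The graded genes of the same pathway kept rising. Cpt1a, the gate for entry of fatty acids into mitochondria, was at 16.2 ± 4.60 TPM in Con, 26.9 ± 2.57 in AP and 63.7 ± 23.0 in SAP. Eci2, a peroxisomal enoyl-CoA isomerase, was at 48.7 ± 10.9, 93.0 ± 18.4 and 224 ± 30.8 TPM. Vnn1, a pantetheinase and PPAR-alpha target, was at 1.56 ± 0.661, 7.71 ± 2.54 and 13.0 ± 6.07 TPM. Ppara did not pass at either step (4.50 ± 0.886, 6.30 ± 1.06 and 8.07 ± 3.23 TPM).

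**Figure D3:**
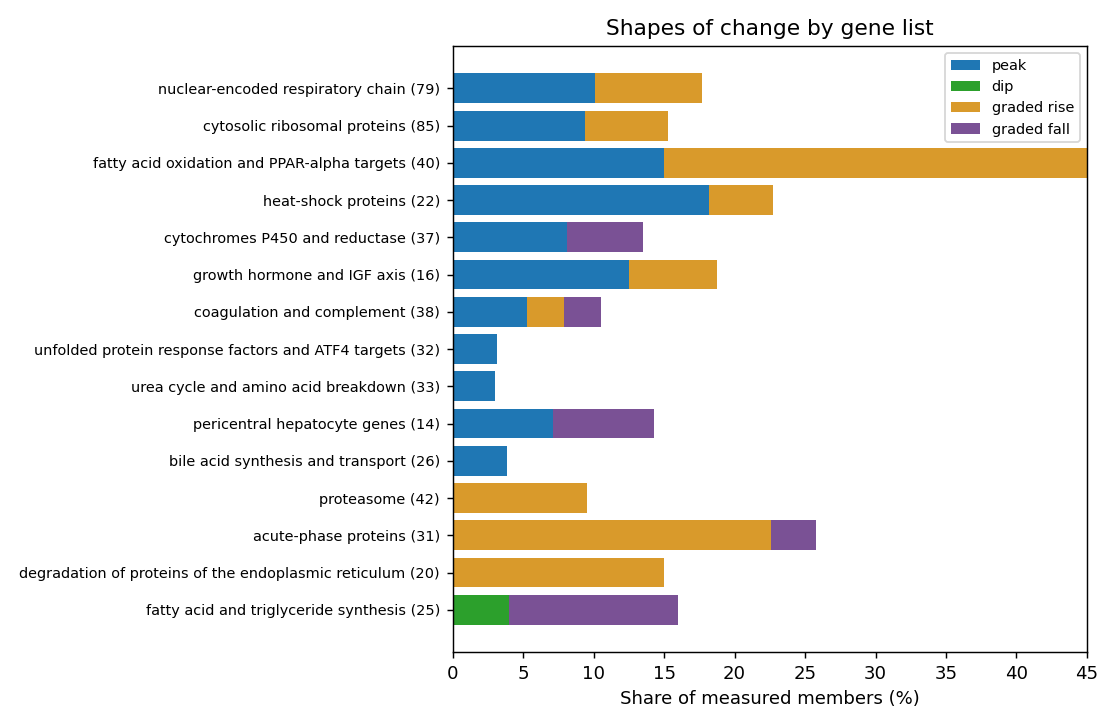
Bars show, for each gene list drawn, with its number of measured members, the share of members (percent) that were peaks, dips, graded rises and graded falls. Peaks and graded rises share the lists of fatty acid oxidation (6 and 12 of 40), ribosomal proteins (8 and 5 of 85) and the respiratory chain (8 and 6 of 79), while acute-phase proteins hold 7 graded rises and 0 peaks among 31. Over all genes tested, 1.43% were peaks and 1.71% graded rises, so 0 peaks in a list of that size is near the background.

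PPAR-alpha binds a pair of like sites side by side. The letters AGGNCA, any 1 base and AGGNCA again, on both strands of the same windows, were found for 3 of 110 peaks with a promoter (2.73%) and for 31 of the 7825 tested genes (0.396%), so 3 of those 31 are peaks. None of the 3 is in the list of fatty acid oxidation: they are Pdzk1, Cyp2d40 and Asgr1, and their windows are shown because they carry the match, in capitals. The first letter lies 57, 117 and 152 bases before the start. Windows of Acot4, Decr2, Ech1 and Por, looked at first, held none.
Pdzk1, chr3:96829999-96830028, plus strand: gccgggagcAGGACAGAGGTCActtgaact
Cyp2d40, chr15:82764184-82764303, minus strand: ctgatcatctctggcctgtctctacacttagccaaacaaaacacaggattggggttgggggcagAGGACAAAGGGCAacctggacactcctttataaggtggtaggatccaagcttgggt
Asgr1, chr11:70053918-70054037, plus strand: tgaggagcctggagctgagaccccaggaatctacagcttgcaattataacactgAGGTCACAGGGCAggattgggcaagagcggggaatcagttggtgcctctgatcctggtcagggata
Of the other motifs, TTGCATCA (bound by C/EBP-ATF pairs) was found for 1 peak, Chchd10, TCACNCCAC (a sterol regulatory element) for Acsl1, Paqr7 and Slc2a8 (2.73% of peaks, 1.61% of tested genes), the endoplasmic reticulum stress element for 0, and CCAAT for 56 (50.9% and 43.2%). Among the 9 dips with a promoter, CCAAT was found for 4 and the others for 0. A match is a description of letters and not of binding.

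Pdzk1, a scaffold that holds the HDL receptor at the hepatocyte membrane, was at 5.01 to 11.9 TPM in Con (median 8.69), 11.0 to 26.2 TPM in AP (median 16.6) and 3.62 to 8.48 TPM in SAP (median 6.43). Of the AP livers 7 lay above all others, and AP was 2.09-fold above Con (adjusted p = 0.00378) and 2.62-fold above SAP (adjusted p = 5.80e-07). Its level is uncertain, because 38.0% of its windows occur elsewhere, chiefly in Gpr89, a gene annotated on the opposite strand there that did not pass between AP and Con (adjusted p = 0.547). Slc10a1, the sodium-dependent bile acid importer NTCP, was at 47.2 to 97.6 TPM in Con, 82.5 to 165 TPM in AP and 24.6 to 50.6 TPM in SAP. It was 1.74-fold above Con (adjusted p = 0.0164) and 3.22-fold above SAP (adjusted p = 1.34e-08), and 5 AP livers lay above all others. Slc10a1 was the only peak among 26 genes of bile acid synthesis and transport (1.43% of all genes tested were peaks). Of the 26, 15 were called higher by the contrast (23.1%) and 16 fell at SAP only (28.85%). Cyp8b1, the sterol 12-alpha-hydroxylase, was at 41.1 ± 15.0, 95.5 ± 33.7 and 23.7 ± 21.7 TPM, without a call between AP and Con (adjusted p = 0.0669).

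Of 20 hepatocyte secreted genes, 10 were called higher by the contrast (23.1% of all genes tested) and 1 was a peak (1.43%), Rbp4. This carrier of retinol in plasma was at 1357 to 2732 TPM in Con (median 1874), 2571 to 4772 TPM in AP (median 3375) and 1041 to 2675 TPM in SAP (median 1890.0). AP was 1.84-fold above Con (difference 0.88 ± 0.20 SE, adjusted p = 0.0167) and 1.86-fold above SAP (adjusted p = 0.000401). The SAP minus Con difference was -0.02, with a 95% interval from -0.44 to 0.41 that spans both sides of 0. Mbl1, the mannose-binding lectin A of the lectin pathway and a peak of another list, coagulation and complement, was at 212 to 309.5 TPM in Con, 357 to 429 TPM in AP and 142 to 251 TPM in SAP, with no overlap of AP with the rest. It was 1.55-fold above Con (adjusted p = 0.00151) and 2.22-fold above SAP (adjusted p = 4.47e-10). Both are steady.

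Proc, the anticoagulant protein C, was the other peak among 38 genes of coagulation and complement (1.43% of all genes tested were peaks), at 261 ± 32.5, 342 ± 53.8 and 189.7 ± 24.7 TPM. Its call was lost without Con 1, 5, 7 or 10 or AP 15, 17, 18 or 19 (highest adjusted p 0.0940, without AP 15). Vkorc1 and Ggcx, the enzymes of the vitamin K cycle that activates protein C and several clotting factors, were peaks as well, named after their values were seen. Vkorc1 was at 170.3 ± 31.8, 233 ± 35.8 and 41.7 ± 5.90 TPM, and Ggcx at 6.39 ± 1.90, 10.5 ± 2.54 and 5.09 ± 1.91 TPM. Neither is steady, with 18 and 12 of 24 fits without 1 liver keeping the call, and Vkorc1 shares 50.5% of its windows. Igfbp2 and Igfbp4, binding proteins of insulin-like growth factors, were peaks among 16 genes of that axis (1.43% of all genes tested). Igfbp4 was at 505 ± 66.1, 708.5 ± 127 and 426 ± 54.7 TPM and lost its call without AP 15 (adjusted p = 0.0502), and Igfbp2 lost it in 13 of 24 such fits (highest adjusted p 0.117, without Con 7).

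Of acute-phase proteins, the hallmark of hepatic inflammation, none of 31 was a peak. The contrast called 20 of them lower and none higher, 7 were graded rises and 21 rose at SAP only, against 26.5% called lower, 1.71% graded rises and 39.2% rising at SAP only over all genes. Cytokines, chemokines and NF-kB feedback genes held 0 peaks, 0 graded rises, 20 lower calls and 22 rises at SAP only among 24. Immediate-early genes held 0 peaks, 0 graded rises and 17 lower calls among 18, and all 18 rose at SAP only. Peaks being 1.43% of all genes tested, a count of 0 peaks is near the background in lists of these sizes. Saa1, a serum amyloid A gene and a graded rise, was at 1459 ± 1679 TPM in Con, 3618 ± 1743 in AP and 31320 ± 6807 in SAP, and 32.1% of its windows occur elsewhere.

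Drug-metabolizing enzymes were mostly lower in SAP. Of 37 cytochromes P450 and their reductase, 22 fell at SAP only (28.85% of all genes tested), 23 were called higher by the contrast (23.1%) and 3 were peaks (1.43%). Por, the reductase that feeds electrons to all microsomal P450 enzymes, was at 41.7 to 91.4 TPM in Con, 88.2 to 127 TPM in AP and 48.5 to 94.9 TPM in SAP. It was 1.73-fold above Con (adjusted p = 0.0115) and 1.64-fold above SAP (adjusted p = 0.000603), with 5 AP livers above all others and a SAP minus Con difference of 0.08 (95% interval -0.27 to 0.43). Cyp2d26 was at 233 ± 47.4, 374 ± 90.0 and 237 ± 37.0 TPM and is steady like Por. Cyp2d40 was at 39.0 ± 10.3, 61.2 ± 14.5 and 43.1 ± 7.98 TPM and lost its call without Con 1, 7 or 10 or AP 15, 17 or 19 (highest adjusted p 0.0588, without AP 15). Fdx1, which passes electrons to mitochondrial P450 enzymes, and Gstt2, a glutathione transferase, are steady peaks named after their values were seen. Fdx1 was at 97.4 ± 21.4, 150 ± 24.3 and 46.8 ± 5.57 TPM, and Gstt2 at 80.9 ± 8.26, 124 ± 24.7 and 39.0 ± 6.69 TPM.

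Genes of the respiratory chain and the ribosome gave many peaks of small size. Among 79 nuclear-encoded respiratory chain genes 8 were peaks, 6 were graded rises and 51 were called higher by the contrast (over all genes, 1.43%, 1.71% and 23.1%). Of the 79, 38 fell at SAP only (28.85% of all genes), without a call between AP and Con. Without 1 liver the peaks of this list ran from 4 (without Con 1, 7 or 10 or AP 15, 17 or 18) to 12 (without Con 6). Sdhc, a membrane subunit of complex II, was at 73.6 to 113.5 TPM in Con, 114.4 to 166 TPM in AP and 89.5 to 105 TPM in SAP, with all 8 AP livers above all others. It was 1.41-fold above Con (adjusted p = 0.00939) and 1.39-fold above SAP (adjusted p = 0.000235), its SAP minus Con interval was -0.19 to 0.23, and it was the only 1 of the 8 that is steady. Cox4i1, of complex IV, was at 695 ± 93.9, 993 ± 117 and 793 ± 62.7 TPM with no overlap of AP with the rest, and lost its call among these fits only after quantile normalization.

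Of 85 cytosolic ribosomal protein genes 8 were peaks, 5 were graded rises and 10 rose at AP only (over all genes, 1.43%, 1.71% and 1.21%). Rps21 was at 321 to 509.6 TPM in Con, 555 to 729 TPM in AP and 264 to 479 TPM in SAP, again without overlap. AP was 1.56-fold above Con (adjusted p = 0.0109) and 1.70-fold above SAP (adjusted p = 2.12e-05). Rps21 is the only steady 1 of the 8, and without 1 liver the number of ribosomal peaks ran from 2 (without Con 1, 7 or 10 or AP 15 or 17) to 13 (without SAP 26 or 27). The ribosomal and respiratory lists hold short and abundant transcripts, like the peaks as a whole. With trends of transcript length and GC content removed from each liver, 186 peaks and 55 dips were called, 102 and 9 of them among the 151 and 14.

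Slc25a13, the mitochondrial aspartate-glutamate carrier citrin, was the only peak of 33 genes of urea cycle and amino acid breakdown, and is steady (14.8 ± 2.67, 22.3 ± 3.42 and 7.59 ± 1.57 TPM). Slc1a2, a glutamate transporter of hepatocytes near the central vein, was the only peak of 14 pericentral genes (10.6 ± 1.77, 16.8 ± 2.90 and 11.4 ± 2.93 TPM). Without Con 7 its adjusted p against Con was 0.0518. The share of peaks over all genes tested, to set beside both lists, was 1.43%.

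Among the 12 peaks with the largest distance to the nearer group, 2 were under 1 TPM in every SAP liver. Pcp4l1, related to the calmodulin regulator Pcp4, was at 4.0 to 13.2 TPM in Con, 13.1 to 26.3 TPM in AP and 0.11 to 0.51 TPM in SAP. AP was 2.28-fold above Con (difference 1.19 ± 0.18 SE, adjusted p = 0.000494) and 15.0-fold above SAP (adjusted p = 1.29e-15), and 7 AP livers lay above all others. Fam89a was at 4.01 ± 1.97, 8.50 ± 2.44 and 0.329 ± 0.183 TPM and was 1.97-fold above Con (adjusted p = 0.00852). Both are steady. Nat8f5, of the N-acetyltransferase 8 family, was at 19.3 ± 11.5, 40.1 ± 12.7 and 6.13 ± 3.28 TPM and overlaps Nat8f6 on its own strand. Sord, sorbitol dehydrogenase, was at 34.1 ± 11.6, 74.0 ± 34.9 and 9.18 ± 4.17 TPM, and Paqr7, a membrane progestin receptor, at 10.3 ± 3.01, 22.4 ± 8.73 and 3.67 ± 2.38 TPM. These 3 lost their calls without Con 1, 7 or 10 or AP 15, 17 or 18, and Sord and Paqr7 also without Con 5 or AP 19 (highest adjusted p 0.0737, 0.0845 and 0.0811 for Nat8f5, Sord and Paqr7, each without AP 15). Windows of Sord occur elsewhere to 31.3%. Cideb, which helps to load fat onto very-low-density lipoprotein, is a steady peak named after its values were seen. It was at 153 ± 36.3, 255 ± 47.9 and 83.6 ± 22.1 TPM, and 62.0% of its windows also lie in Nop9, a neighbour on the opposite strand that is a graded fall (200.3 ± 106, 53.8 ± 46.9 and 6.21 ± 1.20 TPM).

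**Figure D4:**
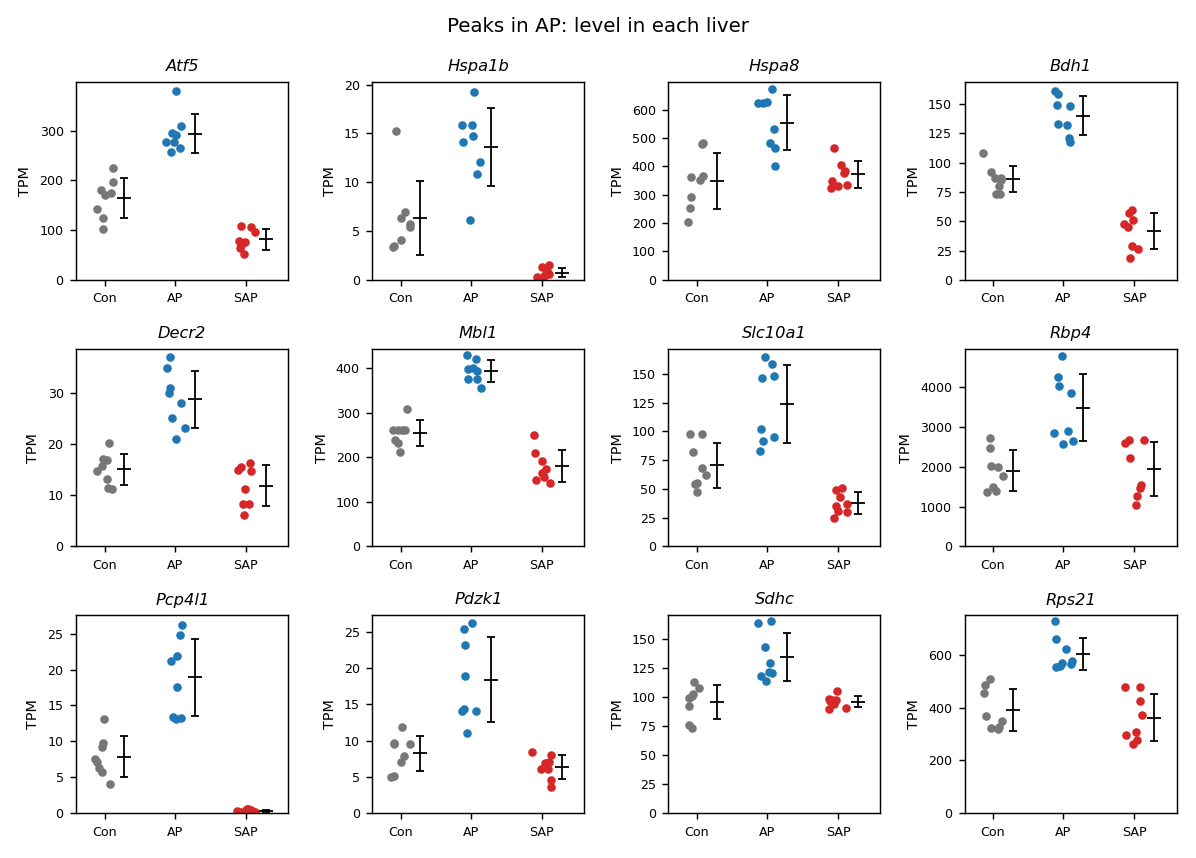
Each panel shows the TPM of 1 peak in every liver (points) with the group mean and SD (bars) in Con, AP and SAP. AP points lie above both other groups without overlap for Atf5 and Decr2, while Hspa1b in AP overlaps Con through Con 6 at 15.2 TPM.

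Dips were few, and most were small. Their median distance to the nearer group was 0.63 (range 0.31 to 1.84), and in 2 of the 14, Olfr1033 and AC161438.1, all 8 AP livers lay below all others, as in 2 of all genes tested (0.0189%). SAP passed as higher than Con in 6 dips and did not pass in 8. Dips were chosen for an AP level below both other groups, so shares over all genes are not an expectation for these counts. Their median transcript length was 4898 bases.

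Scd1, the stearoyl-CoA desaturase that makes monounsaturated fatty acids, was the dip with the largest distance. Con livers were at 12.5 to 52.4 TPM (median 29.9), AP livers at 1.14 to 26.1 TPM (median 8.34) and SAP livers at 15.6 to 228 TPM (median 63.8). The groups overlapped: 6 AP livers lay below all others, and AP 15 and AP 19, at 26.1 and 23.5 TPM, lay within the control range. The AP mean corresponded to 0.280 of Con (difference -1.84 ± 0.51 SE, adjusted p = 0.0348) and to 0.141 of SAP (SAP minus AP 2.83 ± 0.51 SE, adjusted p = 2.19e-05). SAP minus Con was 0.99, with a 95% interval from -0.05 to 2.03. The call was lost without Con 1, 5, 7, 9 or 10 or AP 16, 17 or 18 (highest adjusted p against Con 0.0720, without AP 18), and it was kept under the 4 other scalings.

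No other gene of fat synthesis was called a dip. Among 25 measured genes of fatty acid and triglyceride synthesis, Scd1 was the only dip (0.133% of all genes tested). Srebf1, Acss2 and Elovl6 were graded falls (0.748%). At such a share of dips, finding no further one in a list of this size is near the background. Srebf1, the factor that turns the pathway on, was at 37.7 ± 9.66 TPM in Con, 22.1 ± 4.45 in AP and 8.47 ± 2.02 in SAP. Elovl6, the elongase that works next to Scd1, was at 13.7 ± 4.42, 5.85 ± 2.33 and 1.41 ± 0.216 TPM. Fasn, the fatty acid synthase, was at 55.9 ± 20.2, 35.8 ± 8.86 and 91.9 ± 36.2 TPM, and only its rise from AP to SAP passed (adjusted p = 7.90e-05, against Con 0.178). Of 25 genes of cholesterol synthesis and uptake, 18 fell at SAP only (28.85% of all genes), and none was a peak or a dip, where all genes give 1.43% and 0.133%.

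Olfr1033, annotated as an olfactory receptor, was the most regular dip with a gene name. It was at 50.6 to 75.4 TPM in Con, 14.1 to 46.9 TPM in AP and 94.3 to 197 TPM in SAP, and no groups overlapped. AP minus Con was -1.17 ± 0.20 SE (adjusted p = 0.00259) and SAP minus AP 2.24 ± 0.20 SE (adjusted p = 4.99e-10). Along with AC161438.1 and Dcbld1 it is a steady dip. AC161438.1, a clone-named gene, was at 25.2 ± 2.38, 13.8 ± 4.94 and 152 ± 33.2 TPM, and Dcbld1 at 1.65 ± 1.10, 0.458 ± 0.187 and 2.63 ± 0.738 TPM. These 2 were named after their values were seen.

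Other named dips included regulators, an enzyme and a class I MHC gene. Sik3, a salt-inducible kinase, was at 21.1 ± 7.92, 11.5 ± 3.22 and 68.03 ± 20.6 TPM, and Atg16l2, related to an autophagy factor, at 5.83 ± 2.58, 3.03 ± 1.27 and 13.0 ± 2.50 TPM. Each lost its call in 17 of 24 fits without 1 liver (highest adjusted p 0.115 and 0.117). Cic, a transcriptional repressor, was at 9.25 ± 2.24, 5.65 ± 1.68 and 9.17 ± 2.70 TPM, and lost it in 9 fits (highest adjusted p 0.0971, without AP 15). Pan3, of a deadenylase complex that shortens poly(A) tails, was at 5.10 ± 1.14, 3.19 ± 0.888 and 5.16 ± 1.18 TPM and lost it in 5 (0.0614, without AP 15). Pgm2, of the phosphoglucomutase family, was at 6.56 ± 1.82, 3.69 ± 0.949 and 5.79 ± 1.14 TPM and kept it in all 24, but lost it between AP and SAP after quantile normalization (adjusted p = 0.117) and after centring on the median (adjusted p = 0.0972). H2-Q10, a class I MHC gene secreted by mouse liver, was at 711 ± 110.0, 485 ± 109 and 643 ± 138 TPM and lost it without Con 1, 7 or 10 or AP 18 (highest adjusted p 0.0665).

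**Figure D5:**
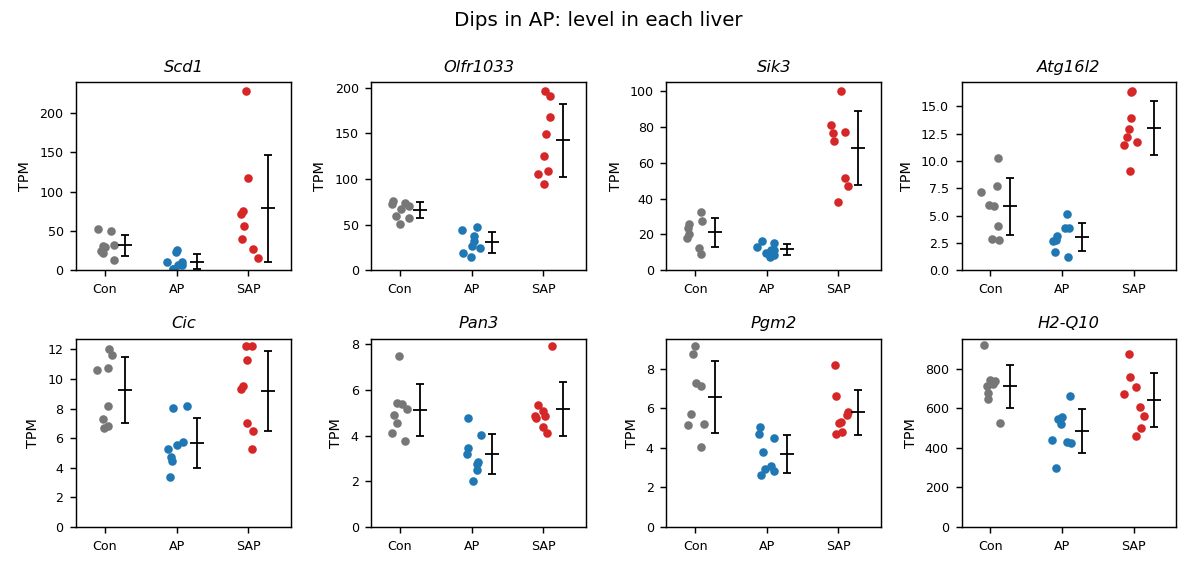
Each panel shows the TPM of 1 dip in every liver (points) with the group mean and SD (bars) in Con, AP and SAP. AP points lie below both other groups without overlap only for Olfr1033; for Scd1, 2 AP livers lie within the control range and the SAP livers spread from 15.6 to 228 TPM.

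Markers of other cell types moved mainly between AP and SAP. Summed neutrophil markers were at 2.84 to 30.1 TPM in Con, 4 to 8.03 in AP and 135 to 368 in SAP. S100a9 made most of that sum in SAP (means 5.85, 3.02 and 134.5 TPM). Only 5 of the 14 neutrophil markers were tested, and all 5 rose at SAP only (39.2% of all genes tested). Summed monocyte markers were at 71.0 to 210.3 TPM in Con, 103 to 198 in AP and 391 to 679 in SAP. Fn1 made most of the monocyte sum (means 77.2, 110.5 and 464 TPM). Of the 7 tested monocyte markers, 3 rose at SAP only (39.2% of all genes tested) and 4 passed neither step (26.47%). Lyz2 was among the latter (10.4, 8.29 and 9.34 TPM). Exocrine pancreas markers, with 4 of 26 at 0 in all livers, summed to 17.8 to 41.8 TPM in Con, 16.7 to 26.8 in AP and 8.07 to 15.0 in SAP, of which Cela1, the only 1 tested, made nearly all (means 25.5, 21.5 and 12.0 TPM). The sum of stellate cell markers was lower in AP (59.4 to 177 TPM) than in Con (176 to 254) and SAP (147 to 201). Within it, Ecm1 was lowest in SAP (means 169, 97.3 and 83.4 TPM) and Dcn was high in SAP (23.1, 20.7 and 80.3 TPM). None of the 8 tested was a dip, a count near the background, since dips were 0.133% of all genes tested. Adipocyte markers summed to 3.94 to 10.54 TPM in Con, 5.37 to 11.42 in AP and 41.79 to 466.9 in SAP. Fabp4 made most of the adipocyte sum in SAP (medians 4.395, 6.635 and 87.55 TPM). Of the 4 tested adipocyte markers, 2 rose at SAP only (39.2% of all genes tested) and 2 passed neither step (26.47%). Secreted hepatocyte genes summed to 145700 to 180500 TPM in Con, 143800 to 173200 in AP and 92770 to 128200 in SAP. The part of these cell types in the peaks and dips, among them the rise of Scd1 from AP to SAP, was not tested.

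Genes next to the threshold differed little from one another. The last peaks inside were Hadh, Ciao2b and Fgf1 with the larger of their 2 adjusted p-values at 0.04915, 0.04934 and 0.04986, and the first outside were Bcap31, Gpat3 and Tmem37 at 0.05002, 0.05024 and 0.05198. Hadh, a dehydrogenase of beta-oxidation at 71.1, 100.4 and 42.4 TPM in Con, AP and SAP, had no overlap of AP with the other livers, and Bcap31 was at 87.8, 120.3 and 89.8 TPM.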

How the data were processed

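RNA had been taken with Trizol from frozen livers and sequenced on libraries made by Illumina protocols, per the labels. The authors deposited 1 table of 55536 genes in 24 libraries, read here as TPM from its values: columns summed to 986423 to 993642, and among genes at 0 in at least 1 library the median smallest value above 0 was 0.17 for 1965 genes of 300 to 600 bases and 0.01 for 2928 genes of 3000 to 6000 bases. The submitters' processing notes name edgeR without a version. The sources used here do not give the aligner, the build or how reads were counted. TPM keep no read counts, so depth is unknown and count tests could not be run; between 17140 and 18565 genes per library were above 0. TPM share a fixed total, so a change of abundant transcripts shifts all others. No 2 libraries were identical.

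Values were taken as log2(TPM + 1), and the 10555 genes that averaged at least 1 TPM (44981 were left out) were fitted with limma 3.58.1 in R 4.3.3 with an intensity trend over all 24 libraries (21 residual degrees of freedom), with Benjamini-Hochberg adjustment over all genes tested within each contrast. The fit was tested on simulated data. Members and lists (33 pathway and 13 marker lists) were chosen with earlier results of these data known. Named genes were Atf5, Hspa1b and Scd1, the 12 peaks and 12 dips (8 qualified) farthest from the nearer group with at least 5 TPM in the highest group, leaving out predicted, clone-named and pseudogenes, up to 5 peaks or dips per list (else the member with the smallest p), and 3 graded rises and 3 falls. Others are said to be named after their values were seen, and some genes the rule covers are not reported here. Of gene names 99.82% occur in GENCODE M21, used for lengths, overlaps and shared 50-base windows (uncertain from 20%), and promoters came from RefSeq (GRCm38.p6); the authors' build is unknown, so only RefSeq coordinates are printed. Strand of counting is not given, so overlapping genes cannot be told apart. Alternatives were other scalings, filters, pseudocounts, weights, thresholds and sets of livers.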

Additional observations from a re-analysis of the deposited data

Results flagged for a closer look

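In 8 of 249 groups of 8 livers tested over the 83 named genes, 1 liver stood far from the other 7, by a gap above the critical share (Dixon's 95% value) of the group's range on the log2 scale. Chance flags about 1 in 20 groups. Of the peaks, Atf5 was at 380.54 TPM in AP 11, against 257.27 to 308.41 TPM in the other AP livers. Hspa1b was at 15.23 TPM in Con 6, against 3.35 to 6.97 TPM in the other controls, and Hspe1 at 65.83 TPM in SAP 24, against 79.24 to 87.91 TPM. Of the dips, Pan3 was at 7.93 TPM in SAP 22, against 4.11 to 5.36 TPM in the other SAP livers. Among genes named from the lists, Egr1, an immediate-early factor, was at 1.36 TPM in Con 10 (others 0.13 to 0.46 TPM), and Il1rn, the interleukin-1 receptor antagonist, at 4.54 TPM in Con 3 (others 0.06 to 0.87 TPM). Ighm, the constant region of IgM, was at 12.12 TPM in AP 11 (others 1.95 to 4.80 TPM), and Wipi1, an autophagy protein, at 1.70 TPM in AP 18 (others 2.46 to 3.16 TPM). Without AP 11 and without Con 6, Atf5 and Hspa1b kept their calls as peaks.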

How the results depend on the processing

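The main counts were 2439 genes higher and 2799 lower by the contrast, 151 peaks and 14 dips. Peaks and dips were 85 and 39 after quantile normalization, 256 and 43 with livers centred on their medians, 65 and 4 with no filter, 397 and 25 with array weights, 23 and 2 at an adjusted p under 0.01, 22 and 2 with the larger of both pairwise p-values adjusted once, 371 and 53 without AP 11, 12, 13 and 16, and 3 and 0 without AP 15, 17, 18 and 19. Rescaling without the 50 most abundant genes gave 50 and 52, with 4364 genes lower by the contrast among 12609 tested; it moved the median contrast from -0.04 to -0.17 and the share of higher among called genes from 46.6% to 32.6%. Without SAP 21, 22, 24 and 25 that share was 36.4%, with 200 peaks and 22 dips, and without SAP 26 to 29 there were 284 peaks and 17 dips. Without Con 3 and 9 there were 230 peaks, 139 of them among the 151. In these 2 controls serum amyloid A genes took 1.14 and 0.80% of TPM. That share was 0.05 to 0.22% in the other controls and 0.30 to 1.28% in AP, and its part in the count was not tested. Alternatives chosen after seeing the data gave 78 peaks and 22 dips (without mitochondrial transcripts) and 55 dips (length and GC trends removed). Without 1 liver, the ranges were 2241 to 2581 higher, 2521 to 3031 lower, 51 to 223 peaks and 4 to 23 dips. No peak or dip kept its call under every alternative (0 of 165), and 46 of 151 peaks kept it in all 24 fits without 1 liver. Except for the lower calls under rescaling, both contrast counts stayed within 1.5 times under every alternative. For the contrasts of the 83 named genes, 3216 values kept their call and direction or changed direction without passing in either fit, and 11 lost and 7 gained a call. In 2 the direction reversed with a call: Fyb was -0.998 without AP 11, 12, 13 and 16 (adjusted p = 0.0388, against 0.55 with all livers), and Nop9 was 1.45 without AP 15, 17, 18 and 19 (adjusted p = 0.00112, against -0.17). Beyond fewer livers, more genes tested or a stricter threshold, where a fit has them, the cause was not tested. No paired analysis was possible because the groups share no replicate numbers. TPM keep no depth, so no limit from counting error can be given.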

Other observations

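Some genes stepped up at AP and did not pass between AP and SAP. This shape held 128 genes, with 26 stepping down. Cyp2e1, the ethanol-inducible P450 of pericentral hepatocytes, was at 1374 ± 358 TPM in Con, 3055 ± 744 in AP and 2381 ± 564 in SAP (SAP against AP adjusted p = 0.0694). Derl3, which helps to draw misfolded proteins out of the endoplasmic reticulum, was at 3.80 ± 1.75, 29.2 ± 8.11 and 54.3 ± 30.4 TPM (adjusted p = 0.191 between SAP and AP).

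The peak with the largest AP minus Con difference on the log2(TPM + 1) scale was a pseudogene, Cyp4b1-ps1, at 5.85 ± 5.00 TPM in Con, 69.3 ± 41.9 in AP and 22.0 ± 23.8 in SAP. It was listed at 0 in 2 controls, and 35.0% of its windows occur elsewhere. AP 11, 12, 13, 16 and 18 were at 74.15 to 135.68 TPM, AP 15, 17 and 19 at 14.43 to 36.48 TPM, and SAP 24 at 77.91 TPM. It is 1 of the 3 peaks left without AP 15, 17, 18 and 19, where AP minus Con was 4.20 (adjusted p = 0.00734). The parent gene Cyp4b1 was at 1.41 ± 0.538, 1.60 ± 0.674 and 4.53 ± 2.43 TPM and rose at SAP only. Cyp4b1-ps2, another pseudogene peak, was at 29.4 ± 9.66, 60.2 ± 25.7 and 6.46 ± 2.22 TPM and is not steady. The third, Gm22748, overlaps Odc1 on the same strand. It was listed at 0 in all Con and SAP livers and in AP 11, 15, 17 and 19, and at 13.60, 22.58, 11.60 and 14.38 TPM in AP 12, 13, 16 and 18, so its call rests on 4 livers.

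Among genes that did not pass between AP and Con, G0s2, an inhibitor of triglyceride lipase, had all 8 AP livers above all 16 others, at 122 ± 36.8 TPM in Con, 313 ± 98.0 in AP and 39.9 ± 39.4 in SAP (AP against Con adjusted p = 0.132, SAP against AP 6.89e-07).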
